A study of Mus musculus with 3 samples.

Results

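MicroRNAs (miRNAs) are short RNAs that guide the repression of messenger RNAs. Mature forms of 6 miRNAs with a published role in adipocyte differentiation or in hypoxic fat were followed in mouse visceral fat: miR-204-5p, miR-210-3p, miR-31-5p, miR-224-5p, miR-375-3p and miR-448-3p. They were taken by name from a deposited table of 1251 mature miRNAs, and all 6 had a row. The samples were visceral (epididymal) white fat from 3 C57BL/6J mice, called mouse 1, mouse 3 and mouse 9 after their titles. Every mouse was fed for 11 weeks, starting at 5 to 6 weeks of age, on a high-fat diet with 6.75% eicosapentaenoic acid (EPA), the omega-3 fat of fish oil. Fat supplied 45% of the energy, protein 20% and carbohydrate 35%, and a fast of 4 h came before tissue collection. No group on another diet was analysed here, so no value measures an effect of EPA. Beyond their titles, nothing states that the samples are separate animals, so the p-values reflect sample-to-sample spread that could be technical.

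Fat cells form when precursors switch on the transcription factors PPARgamma and C/EBPalpha, and miRNAs tune this switch by pairing their seed (bases 2 to 8) with target messenger RNAs. Of the miRNAs followed here, miR-204-5p, miR-210-3p and miR-375-3p are known to favour adipocyte formation, while miR-31-5p, miR-224-5p and miR-448-3p are known to restrain it. miR-210-3p is also the best known miRNA induced by low oxygen, a state that expanding fat can reach. These roles come mostly from cultured precursors and are background to the values below.

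The mature sequences are shown because the seed, in capitals, sets which messenger RNAs each miRNA can pair with. RefSeq (GRCm38.p6) held 5 of the 6.
miR-204-5p: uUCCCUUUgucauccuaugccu
miR-210-3p: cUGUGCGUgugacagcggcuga
miR-31-5p: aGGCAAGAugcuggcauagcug
miR-224-5p: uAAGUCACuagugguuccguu
miR-448-3p: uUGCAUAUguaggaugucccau
The 5 seeds were all different, so these miRNAs do not form a seed family. Among reference mature miRNAs, miR-211-5p and miR-7670-3p shared the seed of miR-204-5p, and none shared the other 4 seeds. miR-211-5p is the paralog of miR-204-5p and is shown because reads of the pair are separated by a single base.
miR-211-5p: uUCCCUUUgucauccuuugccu
The substitution is A17U, counted from the 5′ end of miR-204-5p. miR-211-5p stood at the lowest value of the table in the 3 mice, so the row of miR-204-5p was the only member of the pair with signal. miR-7670-3p had no row in the table.

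The hairpins lie in unrelated places on GRCm38 (mm10). In GENCODE M21, Mir204 (chr19:22750605-22750672, plus strand) lies in an intron of the cation channel gene Trpm3. Mir210 (chr7:141221384-141221493, minus strand) overlaps no other annotated gene, and the nearest protein-coding gene, Rassf7, is 2726 bp away. Mir31 (chr4:88910557-88910662, minus strand) overlaps an exon of the long non-coding RNA AL805899.1. Mir224 (chrX:72261031-72261112, minus strand) lies in an intron of the GABA receptor gene Gabre, with Mir452 1111 bp away. Mir375 (chr1:74900658-74900721, minus strand) overlaps no other annotated gene. Mir448 (chrX:147158210-147158321, plus strand) lies in an intron of the serotonin receptor gene Htr2c, which also holds Mir764, Mir1264, Mir1298 and Mir1912.

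Of the 6 miRNAs, 4 were above the floor in every mouse, miR-375-3p in 2 mice and miR-448-3p in none. The floor is the lowest value of the table, 3.32 on the deposited log2 scale, and a row at the floor is taken as not detected. Over the whole table, 287 of 1251 miRNAs (22.9%) were above the floor in every mouse and 888 stood at it throughout. Levels below are deposited log2 normalized counts, and linear normalized counts are given with the constant of 10 in those values removed. Each read covers a whole mature miRNA, so no correction for length is needed. Together the 6 made up 0.0891% of the summed linear value in mouse 1, 0.0650% in mouse 3 and 0.0539% in mouse 9. The series text gives about 13.8 M mapped reads per sample, and the depth of each library cannot be read from the normalized columns.

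Among the miRNAs that favour adipocyte formation, miR-204-5p was the most abundant and steady. It is known to repress Runx2, the factor that drives precursors towards bone. Its log2 level was 9.97 in mouse 1, 9.76 in mouse 3 and 9.57 in mouse 9, a mean of 9.77 ± 0.20 (SD, n = 3). These are 996, 858 and 748 linear normalized counts, at ranks 92, 96 and 100 of the profile. The mice lay close together, and miR-204-5p led the 6 in each of them.

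miR-210-3p, the hypoxia-induced miRNA, was the steadiest. Its log2 level was 8.14 in mouse 1, 7.86 in mouse 3 and 8.05 in mouse 9, with a mean of 8.02 ± 0.14 (SD, n = 3) and ranks 142, 152 and 146. On the linear scale it averaged 250 ± 25.0 normalized counts. Its mean was itself the median of the 287 miRNAs above the floor in every mouse, so it stood in the middle of the detected profile. No marker of oxygen level was measured in these samples.

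miR-375-3p, best known from pancreatic islets and also reported to promote adipocyte formation in culture, was high in mouse 1 only. Mouse 1 had a log2 level of 8.90 and mouse 9 of 4.12, while mouse 3 was at the floor of 3.32. In mice 1, 9 and 3 in turn, these are 468, 7.35 and 0 linear normalized counts. Its rank was 118 in mouse 1 and 279 in mouse 9. The mean of 5.45 ± 3.02 (SD, n = 3) therefore describes none of the mice, and without mouse 1 it was 3.72.

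Among the restraining miRNAs, miR-224-5p was the most abundant on average. It is known to act on the early adipogenic factor Egr2 and on the fatty acid enzyme Acsl4. Its log2 level was 8.53 in mouse 1, 7.14 in mouse 3 and 8.0 in mouse 9, with a mean of 7.89 ± 0.71 (SD, n = 3). The linear values were 361, 131 and 246 normalized counts, with mouse 3 the lowest.

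miR-31-5p, known to repress the adipogenic factor Cebpa, was high in mouse 3. Its log2 level was 5.78 in mouse 1, 8.50 in mouse 3 and 5.64 in mouse 9, a mean of 6.64 ± 1.61 (SD, n = 3). On the linear scale these are 44.9, 351 and 39.7 normalized counts. Mice 1 and 9 were nearly equal, and without mouse 3 the mean log2 level was 5.71.

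miR-448-3p, known to repress the adipogenic factor Klf5, was at the floor in the 3 mice. All 8 mature miRNAs of its Htr2c neighbours (both arms of miR-764, miR-1264, miR-1298 and miR-1912) and its opposite arm miR-448-5p were also at the floor in every mouse. The same was true of 888 of the 1251 miRNAs in the table, so these floor values say little about the Htr2c intron. Of the Gabre miRNAs, miR-224-5p was detected in every mouse, while miR-452-5p and miR-452-3p of the hairpin beside it were at the floor in all. Absence of signal at the floor is a limit of detection and is not evidence that a miRNA is absent.

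**Figure D1:**
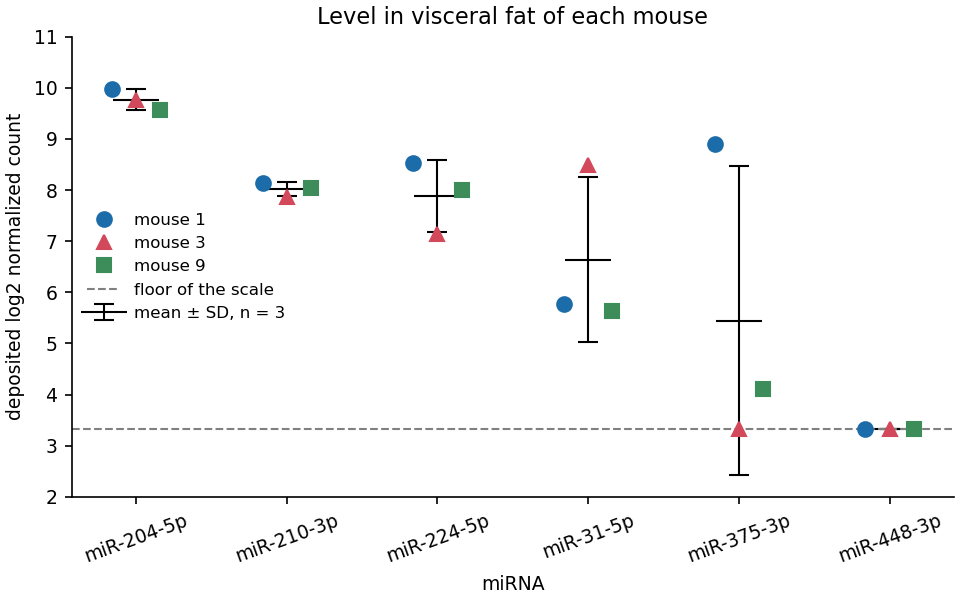
Deposited log2 normalized count (vertical axis) of the 6 miRNAs in mouse 1, mouse 3 and mouse 9 (coloured points), with bars at the mean ± SD (n = 3) and a dashed line at the floor of 3.32. miR-204-5p and miR-210-3p are tight, miR-375-3p is high in mouse 1 alone and miR-31-5p in mouse 3.

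The order of the 6 by mean level was miR-204-5p, miR-210-3p, miR-224-5p, miR-31-5p, miR-375-3p and miR-448-3p. Differences between neighbours in that order were taken within each mouse. miR-204-5p exceeded miR-210-3p by 1.75 ± 0.20 log2 units (SD, n = 3), in 3 of 3 mice, which is larger than the spread. miR-210-3p and miR-224-5p differed by 0.13 ± 0.56, with miR-210-3p higher in 2 of 3 mice. miR-224-5p exceeded miR-31-5p by 1.25 ± 2.27 and miR-31-5p exceeded miR-375-3p by 1.19 ± 4.16, each in 2 of 3 mice. miR-375-3p exceeded miR-448-3p by 2.12 ± 3.02, in 2 of 3 mice. These 4 lower neighbours thus did not differ beyond their spread. The two-sided exact sign-flip permutation p was 0.25 for the first pair, the smallest that 3 mice allow, and 0.5 to 0.75 for the other pairs. After Benjamini-Hochberg adjustment over the 5 pairs it was 0.75 for each.

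The second place changed with the mouse. It went to miR-375-3p in mouse 1, to miR-31-5p in mouse 3 and to miR-210-3p in mouse 9. Of the 15 possible pairs, 8 kept their order in the 3 mice, counting miR-375-3p and miR-448-3p, tied at the floor in mouse 3, as not kept. Summed over the 3 miRNAs that favour adipocyte formation, the linear level was 1737 normalized counts in mouse 1, 1080 in mouse 3 and 1010 in mouse 9. The 3 restraining miRNAs summed to 406, 482 and 286. The favouring sum was higher in each mouse, and miR-204-5p held most of it in each.

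**Figure D2:**
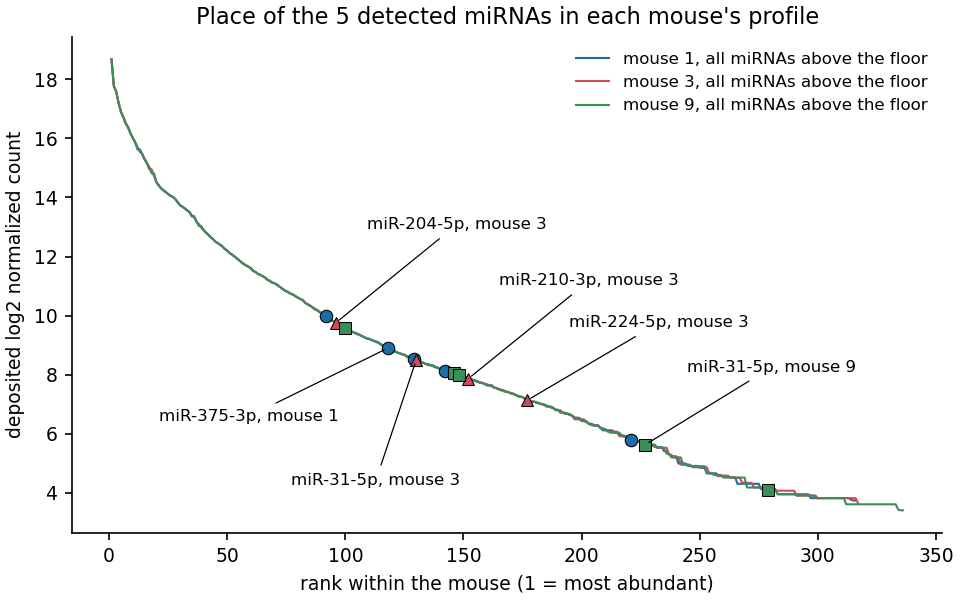
Deposited log2 normalized count (vertical axis) against rank within each mouse (horizontal axis) for every miRNA above the floor (lines, coloured by mouse), with the 5 detected miRNAs as points (circle mouse 1, triangle mouse 3, square mouse 9). The lines nearly coincide, and miR-204-5p sits at ranks 92 to 100 while miR-31-5p and miR-375-3p move along the curve between mice.

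Each hairpin releases a 5p and a 3p strand, and the strand loaded into the silencing complex is usually the abundant one. For 4 of the 5 detected miRNAs the opposite arm (miR-204-3p, miR-31-3p, miR-224-3p and miR-375-5p) stood at the floor in the 3 mice. Over the 129 hairpins of the arm test below, 47 had an arm at the floor in every mouse. miR-210 was the only hairpin of the 6 with both arms detected, and its arms are shown side by side.
miR-210-3p: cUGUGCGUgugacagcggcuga
miR-210-5p: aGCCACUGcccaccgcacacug
miR-210-5p stood at 4.31, 3.91 and 4.19 log2 units in mice 1, 3 and 9, or 9.83, 5.05 and 8.19 linear normalized counts. The log2 ratio of 5p to 3p was -3.88 (n = 3), with the 3p arm higher in 3 of 3 mice. Its SE was 0.036 from these mice alone and 0.137 in limma's moderated test. The Benjamini-Hochberg adjusted p over 129 hairpins was 1.31e-05 in that test, two-sided against a ratio of 0, and rests on the moderated SE. The size of the miR-210 ratio depends on the constant of 10, which exceeds the linear value of miR-210-5p in each mouse. It was -4.89 with a constant of 1 and -2.60 with 40, and the call held under both.

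The same test called 51.2% of the 129 hairpins with the 5p arm higher and 45.7% with the 3p arm higher, or 96.9% in all, so a call says little about any given hairpin. Of the 5 hairpins tested here, 4 passed the threshold of 0.05. miR-204 had a log2 ratio of 5p to 3p of 6.45 (adjusted p 5.11e-06 by limma), miR-224 of 4.57 (0.000123) and miR-31 of 3.32 (0.00707), each with the 5p arm higher in 3 of 3 mice. With the 3p arm at the floor, these ratios are only distances from the floor and move with the constant. The miR-31 hairpin reached the level filter, a mean of at least 100 linear normalized counts in the larger arm, only through mouse 3 and was not tested without that mouse, and the same holds for miR-375 and mouse 1. miR-375 did not pass, at -2.12 with an adjusted p of 0.153. miR-448 was not tested, since neither arm was detected.

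The 5 detected miRNAs differed in their spread between mice. The SD of miR-210-3p (0.14 log2 units) was smaller than that of 28 of the 35 miRNAs within 0.5 log2 units of its mean. For miR-204-5p (0.20) this held against 17 of 21 such miRNAs. miR-224-5p (0.71) was exceeded by 2 of 34, miR-31-5p (1.61) by 3 of 33 and miR-375-3p (3.02) by none of 32. The median SD in these windows was 0.25 around miR-210-3p and miR-224-5p, 0.43 around miR-31-5p and 0.72 around miR-375-3p.

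limma's variance test with a trended robust prior called 2 of 194 miRNAs (1.03%) and none of the 5 members that reached its level filter. miR-375-3p and miR-31-5p reached the filter only through the mouse in which they were high, so their results in this test are not informative. The Benjamini-Hochberg adjusted p was 0.719 for miR-224-5p, 0.783 for miR-31-5p and 0.974 for miR-375-3p, and 0.986 for both miR-204-5p and miR-210-3p. Before adjustment, 12 of the 194 had a p below 0.05, and miR-224-5p was the only member among them (p 0.0434 by limma). miR-375-3p had the lowest mean log2 level of the 194, and the prior SD fitted at that level was 3.02, equal to its own SD, so the trended test could not single it out. With no filter on level, over 363 miRNAs, the adjusted p was 0.0732 for miR-375-3p, 0.243 for miR-31-5p and 0.700 for miR-224-5p. With 3 mice, missing the threshold does not show that a miRNA was stable.

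**Figure D3:**
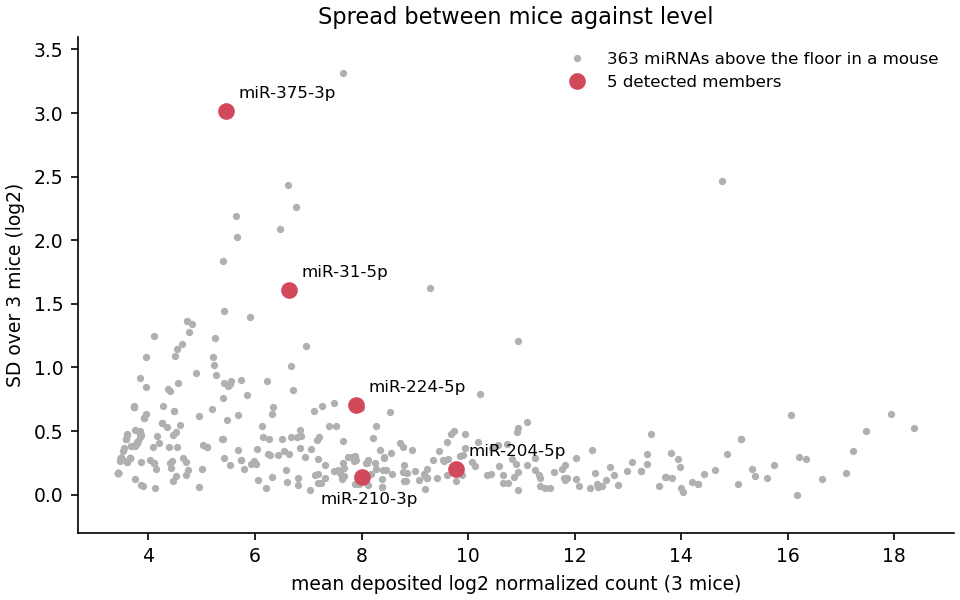
SD over 3 mice (vertical axis, log2) against mean deposited log2 normalized count (horizontal axis) for the 363 miRNAs above the floor in at least 1 mouse (grey), with the 5 detected miRNAs in red. miR-204-5p and miR-210-3p lie low in the cloud, while miR-375-3p at 3.02 and miR-31-5p at 1.61 lie above most miRNAs of their level.

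The mouse with high miR-31-5p also had the highest summed level of listed epithelial marker miRNAs. miR-31-5p is abundant in epithelia such as skin, and 10 epithelial marker miRNAs were set beside it. Their summed level was 4353 linear normalized counts in mouse 1, 7964 in mouse 3 and 1878 in mouse 9. Of these sums, miR-182-5p alone held 2488, 3908 and 762. Mouse 3 was highest for 7 of the 9 detected markers, among them miR-205-5p at 8.70, 11.12 and 8.04 log2 units in mice 1, 3 and 9. The share of all detected miRNAs highest in each mouse was not counted. Such counts of markers, here and for miR-375-3p below, therefore have no background beside them. miR-96-5p was at the floor in all mice. Mice 1 and 9 did not follow the same pattern: miR-31-5p was nearly equal in them (44.9 and 39.7 linear normalized counts), while the epithelial sums were 4353 and 1878. The part of epithelial RNA in the level of miR-31-5p was not tested. In bulk tissue, fewer cells of a type and less RNA per cell cannot be told apart.

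The markers did not follow miR-375-3p in the same way. Mouse 1, where it was high, was highest for 2 of the 9 detected epithelial markers, miR-200a-3p (6.81, 6.08 and 3.32 in mice 1, 3 and 9) and miR-200b-3p (8.40, 7.73 and 4.19). In mouse 3 all but miR-96-5p were above the floor while miR-375-3p was at it. The other pancreas and neuroendocrine miRNAs listed, miR-216a-5p, miR-216b-5p, miR-217-5p, miR-7a-5p and miR-7b-5p, were at the floor in every mouse. No other miRNA of the table stood as far above both other mice in mouse 1 as miR-375-3p, whose gap to the next mouse was 4.78 log2 units.

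**Figure D4:**
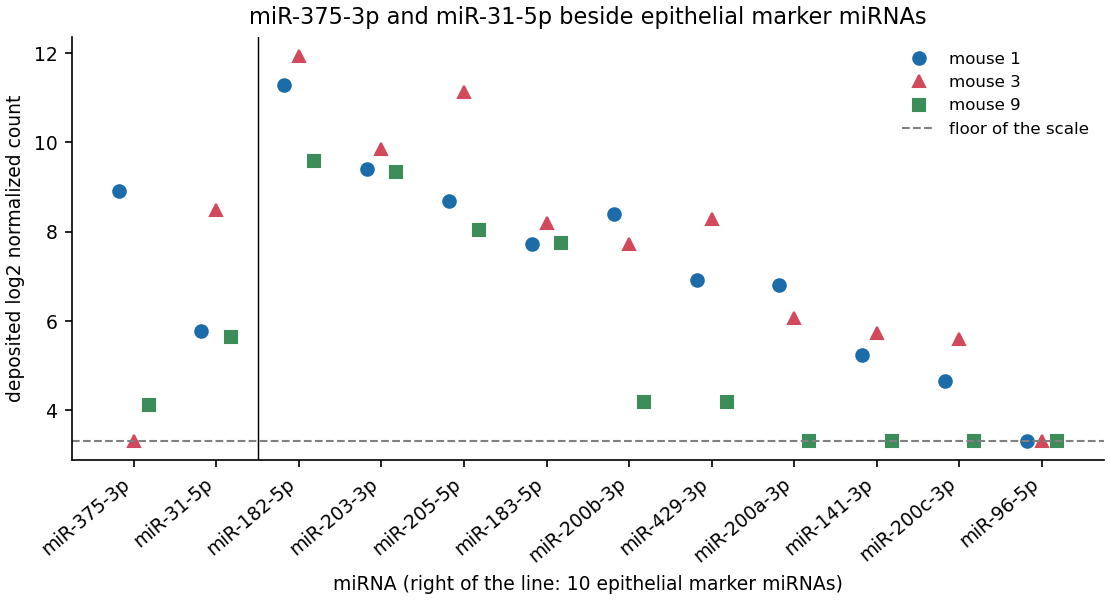
Deposited log2 normalized count (vertical axis) of miR-375-3p, miR-31-5p and 10 epithelial marker miRNAs in each mouse (coloured points), with a dashed line at the floor. Mouse 3 leads for miR-31-5p and 7 markers, and mouse 1 for miR-375-3p, miR-200a-3p and miR-200b-3p.

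Other marker lists were read in the same samples. All 9 miRNAs of an adipose-abundant list were above the floor in every mouse, against 22.9% of the whole table, with a median of 13.81 log2 units. The hepatocyte miRNA miR-122-5p and 7 of 9 germ cell miRNAs were at the floor throughout. So were 888 of the 1251 miRNAs in the table, so these floor values say little about the tissue. The germ cell miRNAs above the floor in every mouse were miR-34c-5p (7.83, 7.64 and 7.54 log2 units in mice 1, 3 and 9) and miR-34b-3p (4.13, 4.08 and 4.19). Striated muscle miRNAs summed to 3912 linear normalized counts in mouse 1, 85898 in mouse 3 and 67069 in mouse 9, nearly all of it miR-133a-3p (3908, 85150 and 66274). Mice 3 and 9 were thus both high. Of the other muscle miRNAs, miR-133b-3p had 4.18, 708 and 794 normalized counts in mice 1, 3 and 9, miR-1a-3p 0, 36.3 and 0.833, and miR-206-3p 0, 4.18 and 0. The 5 leukocyte miRNAs summed to 8511 to 9154 and the endothelial pair to 14862 to 21262, with mouse 3 at the lowest and the highest of these. The part of these cells in the levels of the 6 miRNAs was not tested.

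Set beside the rest of the adipogenic miRNAs, the 6 stood low. They were grouped as lower-abundance miRNAs, so this standing follows from the choice of members and is only a description. Their median of mean log2 levels was 7.26, with miR-448-3p at the floor included, against 6.86 for the 363 miRNAs above the floor in a mouse. The 16 other miRNAs known to promote adipocyte formation had a median of 14.06, led by miR-26a-5p (17.95 ± 0.63), miR-143-3p (17.10 ± 0.17) and miR-181a-5p (16.21 ± 0.29; SD, n = 3). All 16 were above the floor in every mouse, against 22.9% of the whole table, and 13 of them exceeded miR-204-5p in mean. The exceptions were miR-107-3p (9.68), miR-17-5p (7.19) and miR-20a-5p (5.19).

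The 22 other restraining miRNAs had a median of 12.47, and the top 3 were let-7c-5p (16.65 ± 0.12; SD, n = 3), let-7a-5p (16.34 ± 0.28) and miR-125a-5p (15.38 ± 0.15). Of the 22, 18 (81.8%) were above the floor in every mouse, against 22.9% of the whole table, and 16 exceeded miR-224-5p in mean. miR-155-5p and miR-363-3p were at the floor throughout, as miR-448-3p was. Of 13 other hypoxia-responsive miRNAs 11 (84.6%) were above the floor in every mouse, and those 11 all exceeded miR-210-3p in mean. They were led by miR-26a-5p, miR-103-3p (13.81 ± 0.33) and miR-21a-5p (13.70 ± 0.14), which have many other roles. The lists overlap: these leaders are also in the promoting list, and miR-155-5p is in both the hypoxia and the restraining list. Comparisons with the lists are therefore not independent.

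The rows nearest to each member over the 3 log2 values were found by Euclidean distance. miR-204-5p lay nearest to miR-30c-2-3p (0.31 log2 units) and miR-744-5p (0.48), and miR-210-3p nearest to miR-125b-1-3p (0.20) and miR-361-3p (0.21). miR-224-5p lay nearest to miR-152-3p (0.73) and miR-409-3p (0.75). miR-31-5p had no close neighbour: the nearest were miR-429-3p (1.86), of the epithelial list, and miR-129-2-3p (1.87). The distance measures level and pattern together, over 3 mice.

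The letters that pair with a seed were found in the annotated messenger RNAs of some known targets and not of others. The complement of each seed was searched on the sense strand of the longest annotated 3′ UTR of the known targets (GENCODE M21). Such a match is a description, not a measured site, and no messenger RNA was measured here. In the lines below, capitals mark the 7 bases that pair with the seed.
Runx2, first match for miR-204-5p, chr17:44607484-44607512, minus strand: atgtggtgcactcagAAAGGGAcaagagg
Runx2, second match for miR-204-5p, chr17:44604110-44604138, minus strand: tttactctgaacttcAAAGGGActatttg
Cebpa, match for miR-31-5p, chr7:35121506-35121534, plus strand: tggttttgctctgatTCTTGCCaaactga
Egr2, match for miR-224-5p, chr10:67541973-67542001, plus strand: tgtatgctctgttttGTGACTTaaaagtg
Acsl4, match for miR-224-5p, chrX:142318579-142318607, minus strand: ttttccatattcataGTGACTTtttaagt
The matches in Cebpa and Egr2 are followed by an A, which strengthens pairing sites in general, and the other 3 are not. Of 21028 genes with an annotated 3′ UTR, of varying lengths, 14.9% held AAAGGGA, 11.2% held TCTTGCC and 12.8% held GTGACTT. The Tcf7l2 3′ UTR did not hold ACGCACA, the letters for miR-210-3p, which 3.07% of UTRs did. The Klf5 3′ UTR did not hold ATATGCA, the letters for miR-448-3p, found in 11.5%. Shorter matches and other parts of the messenger RNAs were not searched, so other kinds of site may be present.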

How the data were processed

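Per the labels' protocols, total RNA of snap-frozen epididymal fat was made into Illumina small RNA libraries. Per the series' design text, the authors used the Gunaratne pipeline and aligned roughly 13.8 M reads for each sample to mm10 (also named per the submitters' processing notes). They normalized to usable reads and added 40. The deposited values are log2 normalized counts. Their minimum equals 10, not 40, so 10 was removed and added back here. Sorted columns are nearly equal (121 of 336 ranks within 1e-06), so differences between mice are largely differences of rank; no source used here states the step that made them so. Neither the aligner nor the miRNA annotation is given in the sources used here.

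The members, lists and tests were chosen with earlier results of these data known. Levels are means ± SD. limma 3.58.1 (R 4.3.3) tested arm ratios (129 hairpins) and variance (194 miRNAs), each with a mean of at least 100 linear normalized counts, Benjamini-Hochberg adjusted, threshold 0.05. Both tests were tried on simulated data. The variance test recovered 7 of 10 miRNAs made variable, with 0 false calls, so it can miss variable miRNAs. The arm test recovered 60 of 60 changed hairpins, with 2 false calls. No simulated hairpin had an arm at the floor, while 47 of the 129 real ones did in every mouse. Simulated miRNAs not made variable had the same SD at every level, which the real ones did not. These rates may therefore not hold for the real values. Neighbours used an exact sign-flip test. Python 3.11.15, numpy 2.4.6, pandas 2.3.3 and matplotlib 3.10.9 did the rest. Named miRNAs were the 6 members, their opposite arms, seed and host-gene partners, the 2 nearest rows of each member above the floor in every mouse, and the leading miRNAs and cell-type markers of the lists. Other list miRNAs named, such as miR-107-3p, were chosen after their values were seen. Alternatives were log constants of 1 and 40, median-ratio scaling, other level filters and priors, and leaving out each mouse.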

Additional observations from a re-analysis of the deposited data

How the results depend on the processing

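With a log constant of 40 the mean level of miR-210-3p was 8.18, and that of miR-448-3p, which is the floor itself, was 5.32, or 0 with a constant of 1. Leaving out 1 of 3 mice cannot move a mean by 1 SD, so that measure could not show a change. The mean of miR-375-3p, for one, was 3.72 without mouse 1 and 6.51 without mouse 3. Other levels moved by less than 1 SD under these constants and median-ratio scaling, but the SD of miR-375-3p is wide. Its mean was 3.98 with a constant of 1 and 6.63 with 40. miR-31-5p minus miR-375-3p was then 2.46 and 0.49 log2 units. The count of members above the floor in every mouse stayed within 1.5 times of 4 under each alternative. Leaving out each mouse in turn gave -0.17 to 0.39 log2 units for miR-210-3p minus miR-224-5p and -0.80 to 3.35 for miR-31-5p minus miR-375-3p, and both turned negative without mouse 3. The number of miRNAs passing limma's variance test fell from 2 to 0 with a mean of at least 10, a prior that was not robust, a prior without trend, and without mouse 1, 3 or 9. In those 6 settings 2 to 14 miRNAs had an unadjusted p below 0.05. No member passed under any setting tried. The 4 called arm ratios kept their side of the threshold wherever they were tested. The 3p arm of miR-204, miR-224 and miR-31 was at the floor in every mouse. Only the direction of miR-210 could therefore have changed, and it held. Sizes of the 4 ratios moved with the constant. With 1 and 40 in turn, the ratio was -4.89 and -2.60 for miR-210, 9.75 and 4.49 for miR-204, 7.83 and 2.75 for miR-224, and 6.44 and 1.79 for miR-31. The hairpins of miR-31 without mouse 3 and miR-375 without mouse 1 were too low to be tested. The cause of these changes was not tested. No paired comparison between groups was possible because there is a single group. The depth of each library, known only as about 13.8 M reads per sample, limits statements on rows at the floor.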

Other observations

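miR-31-5p was not the only miRNA with a high value in mouse 3. In all, 7 miRNAs stood at least 2 log2 units above both other mice there, and they are named after their values were seen. The largest gap was that of miR-196b-5p, a Hox-cluster miRNA that reached 8.11 log2 units there, with 4.91 in mouse 1 and 3.92 in mouse 9. Second came miR-31-5p, which had a gap of 2.72 log2 units. miR-378d stood at 4.66, 7.09 and 4.52 in mice 1, 3 and 9. miR-205-5p, miR-374b-5p, miR-374c-5p and the muscle miRNA miR-1a-3p made up the rest. miR-374b-5p and miR-374c-5p had the same values (3.95, 6.30 and 3.92 in mice 1, 3 and 9), so the count of 7 may hold 1 signal more than once. Whether they share reads was not tested. In mouse 1, miR-375-3p was the only miRNA with such a gap.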
